A study of Mus musculus with 36 samples.

Results

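Immunity-related GTPases are a family of interferon-inducible proteins that protect mouse cells against vacuolar pathogens. The 7 members described here, Irgm1, Irgm2, Igtp, Iigp1, Tgtp1, Tgtp2 and Ifi47, were chosen by name from the family and not by their values, and they are 7 of the 52636 genes counted. Every member was counted in each of the 36 RNA sequencing libraries, with 3 libraries for each genotype. Most were from intestines of mouse embryos at E18.5, shortly before birth, and the others from mouse embryonic fibroblasts (MEFs), with no treatment named.

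The family falls into regulators and effectors. The regulators Irgm1, Irgm2 and Igtp (also called Irgm3) sit on the membranes of the cell itself and hold the effectors in their inactive, GDP-bound form. The effectors Iigp1 (Irga6), Tgtp1 and Tgtp2 (both known as Irgb6) and Ifi47 (Irgd) bind GTP and gather on the membrane of a vacuole that contains a parasite such as Toxoplasma gondii, which then breaks open. Transcription of the genes is driven by interferons, classically interferon-gamma at GAS elements and the type I and type III interferons at ISRE elements, so transcripts of the family are widely read as a sign of interferon signalling in tissues, including the intestinal epithelium.

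The study asked how cFLIP, the partner of caspase-8 encoded by Cflar, restrains lethal signalling by caspase-8 variants. One set of intestines carried D387A, a change at a site where caspase-8 cleaves itself, as Casp8 1xDA/1xDA (DA below). Its 6 genotypes were Mlkl-/-, DA with Mlkl intact, DA Cflar-/- Mlkl-/-, DA Cflar-/- Mlkl-/- Casp1-/-, DA Cflar-/- Mlkl-/- Casp1-/- Ifnar-/- (Ifnar1, the type I interferon receptor) and DA Cflar-/- Mlkl-/- Casp1-/- Fadd-/-. A second set carried C362A, which removes the catalytic cysteine of caspase-8, as Casp8 C362A/C362A (CA below), and its 4 genotypes were Mlkl-/-, CA Mlkl-/-, CA Mlkl-/- Casp1-/- and CA Cflar-/- Mlkl-/-. The MEFs were Mlkl-/- or DA Cflar-/- Mlkl-/-. Mlkl encodes the executioner of necroptosis, and all genotypes except DA lacked it, so DA differed from the Mlkl-/- controls at Casp8 and at Mlkl. In the D387A set, sample names opened with a number that Mlkl-/- and DA Cflar-/- Mlkl-/- shared and that differed for each of the other genotypes. What that number stands for was not stated, and wherever it differed its part in a result cannot be told apart from the genotype. Alleles were germline, so every cell of an intestine carried them, and whole intestines were sequenced, in which fewer cells of a type and less RNA per cell cannot be told apart.

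Between 17943524 and 32307629 reads fell on genes in each library. Casp1 had 0 to 5 reads in every Casp1-/- library against 952 to 3489 in the other intestines, and Fadd had 15 to 23 reads in Fadd-/- libraries against 689 to 1299. Ifnar1 fell 2.58-fold (log2 fold change -1.37 ± 0.0716, SE) when it was deleted. Reads on Cflar and Mlkl were still present where those genes were deleted, so total counts did not check those alleles. Intestines expressed the enterocyte markers, and in MEFs Alpi, Fabp1, Apoa4 and the intestinal factor Cdx2 were at 0 reads. One library, the third of DA Cflar-/- Mlkl-/- Casp1-/-, stood apart from its replicates, with a summed level of the 7 members of 1050 CPM (counts scaled to a common library size) against 251 and 348, and differences of the members that involve it are given with and without it.

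All members but Iigp1 lie in 2 clusters on chromosome 11 (GRCm38, GENCODE M21). Irgm1 (chr11:48861968-48871683, minus strand), Tgtp1 (chr11:48985327-48994172, minus strand), Tgtp2 (chr11:49057194-49064206, minus strand) and Ifi47 (chr11:49076587-49096974, plus strand) span 235007 bases, and Igtp (chr11:58199556-58207591) and Irgm2 (chr11:58199618-58222782) overlap on the plus strand within 23227 bases. Iigp1 lies elsewhere and its position and sequence are not given here. Promoters are shown because the members moved together in the comparisons below. The 100 bases before each RefSeq start (GRCm38.p6) follow 5′ to 3′, with matches to ISRE (GAAANNGAAA) and GAS (TTCNNNGAA) in capitals, searched on both strands, for Irgm1 (chr11:48871421-48871520, minus strand), Irgm2 (chr11:58214877-58214976, plus strand), Igtp (chr11:58199456-58199555, plus strand), Tgtp1 (chr11:48992247-48992346, minus strand) and Tgtp2 (chr11:49064213-49064312, minus strand).
Irgm1: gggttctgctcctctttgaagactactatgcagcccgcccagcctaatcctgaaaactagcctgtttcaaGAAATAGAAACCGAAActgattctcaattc
Irgm2: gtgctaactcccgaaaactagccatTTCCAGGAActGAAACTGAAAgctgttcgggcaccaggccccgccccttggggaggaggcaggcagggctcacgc
Igtp: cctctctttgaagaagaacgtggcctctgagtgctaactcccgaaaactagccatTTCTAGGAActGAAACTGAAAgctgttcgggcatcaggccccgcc
Tgtp1: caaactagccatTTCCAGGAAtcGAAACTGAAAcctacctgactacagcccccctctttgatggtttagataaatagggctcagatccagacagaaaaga
Tgtp2: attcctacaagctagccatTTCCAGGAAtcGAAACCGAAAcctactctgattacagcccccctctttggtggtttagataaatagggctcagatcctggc

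Irgm2, Igtp, Tgtp1 and Tgtp2 shared one arrangement, a GAS match followed after 2 bases by an ISRE match. The ISRE match began 34 bases before the start in Igtp, 64 in Irgm2, 70 in Tgtp2 and 77 in Tgtp1. Irgm1 had 2 ISRE matches that overlap each other, at 30 to 21 and 24 to 15 bases before its start, and no GAS match. Neither motif was found for Ifi47 in the 300 bases searched, 250 before and 50 after the start. Over 32851 RefSeq promoters of that length, 3.44% held an ISRE match and 8.3% a GAS match. The joined form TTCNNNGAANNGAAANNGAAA, looked for after the matches had been seen, was found in 5 promoters (0.0152%), which were those of Igtp, Irgm2, Tgtp1, Tgtp2 and the neighbouring family gene Gm12185. The annotated start of Gm12185, chr11:48992226 on the minus strand, lies inside the Tgtp1 window, so these 2 matches may be the same site. The kappaB sequence GGGANTTTCC was found in 0.411% of promoters and in none of the 6 members searched. A match describes letters, not binding.

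**Figure D1:**
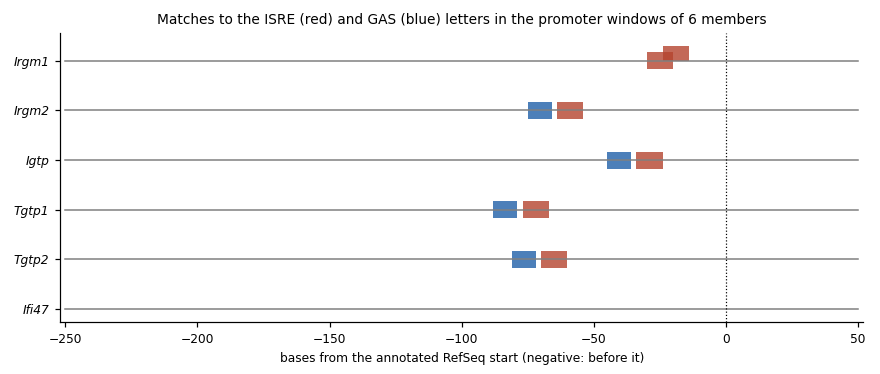
Matches to ISRE (red) and GAS (blue) in the promoters of 6 members, plotted by distance in bases from the RefSeq start (0). Irgm2, Igtp, Tgtp1 and Tgtp2 each show a GAS match next to an ISRE match between 88 and 25 bases before the start, Irgm1 shows 2 overlapping ISRE matches, and Ifi47 shows none.

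Tgtp1 and Tgtp2 are near-identical copies. Of the 50-base windows of their transcripts, the length of a read, 81.2% in Tgtp1 and 86.6% in Tgtp2 also occur in transcripts of other genes, mostly of each other. Only uniquely aligned reads were used by the authors, so the low levels of both genes are minimum levels and the split between them is uncertain. The same share was 11.8% for Igtp, 7.83% for Irgm2, 4.81% for Ifi47, 1.69% for Iigp1 and 0.379% for Irgm1. Exons of Igtp and Irgm2 overlap by 162 bases on the same strand, those of Tgtp1 and the family gene Gm12185 by 223, and those of Ifi47 and Olfr56 by 111, so reads there could have been given to either gene.

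Levels of the members are given below as RPKM (reads scaled to gene length and library size), computed from the deposited counts. Differences are log2 fold changes with their standard error, tested with edgeR's quasi-likelihood test and Benjamini-Hochberg adjustment over all genes tested, and a gene is called higher or lower when it differed by more than 1 on the log2 scale with an adjusted p under 0.05. Counts at an unadjusted p, from fits of only 2 groups, or with a library left out have no share of all genes beside them.

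With DA alone, no member passed the threshold. In the D387A set, Irgm1 was at 10.5, 15.2 and 11 RPKM in the 3 Mlkl-/- intestines and at 11.2, 13.4 and 9.85 RPKM in the DA intestines. Iigp1 was at 4.7, 4.21 and 4.63 RPKM in Mlkl-/- and at 4, 4.04 and 3.36 RPKM in DA. The Irgm1 ranges overlap, while the Iigp1 ranges lie just apart, with DA below. Tgtp1, too, was lower in each DA library, and such a separation downwards in 2 of 7 members stands beside 6.26% of all genes tested. None of the 7 members was called by edgeR, with 0 under an unadjusted p of 0.05 and 0 called by limma-voom or DESeq2, where 0% of the 18360 genes tested were called higher and 0.00545% lower. Log2 fold changes ran from -0.59 ± 0.747 for Tgtp1 to 0.2 ± 0.395 for Ifi47 (adjusted p from edgeR of 0.979 and 0.99). The 95% confidence intervals of Irgm1 (-0.9 to 0.72), Irgm2 (-0.47 to 0.79) and Igtp (-0.84 to 0.85) leave out a doubling.

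All 7 members rose in DA Cflar-/- Mlkl-/- intestines compared with Mlkl-/- intestines, by 3.89- to 20.6-fold. Irgm1, which mice need to survive several intracellular infections, reached 82.1, 57.1 and 81.7 RPKM from 10.5, 15.2 and 11. Every DA Cflar-/- Mlkl-/- library was above every control library, a 6.03-fold difference (log2 fold change 2.59 ± 0.396, edgeR adjusted p = 2.28e-05). Irgm2 was at 26, 18.1 and 24.9 RPKM against 5.45, 6.93 and 5.34 in the controls (log2 fold change 1.96 ± 0.298). Igtp was at 65, 44 and 65.8 RPKM against 7.95, 14.7 and 10.5 (log2 fold change 2.4 ± 0.406). For both of these regulators the groups were apart, with the second DA Cflar-/- Mlkl-/- library the lowest of its group, as it was for Irgm1.

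Among the effectors, Iigp1, which is loaded on parasite vacuoles, was at 51.7, 35 and 54.3 RPKM in DA Cflar-/- Mlkl-/- intestines against 4.7, 4.21 and 4.63 in controls. That was a 10.4-fold rise (log2 fold change 3.38 ± 0.455, edgeR adjusted p = 5.66e-06), with no overlap between groups. Tgtp1 rose from 0.268, 0.223 and 0.23 RPKM (15, 12 and 13 reads) to 3.84, 2.49 and 3.24 RPKM (251, 157 and 229 reads), a 13.2-fold change. Tgtp2 rose from 6, 12 and 5 reads to 3.07, 2.15 and 3.51 RPKM, a 20.6-fold change (log2 fold change 4.37 ± 0.527). Ifi47, whose protein also joins the vacuole, was at 48.2, 31.7 and 52.6 RPKM against 9.71, 13.6 and 8.68, the smallest change of the effectors (log2 fold change 2.05 ± 0.395). The 7 of 7 called higher stand beside 9.4% of all genes tested called higher, and the 7 of 7 whose groups do not overlap beside 34.3%. The median log2 fold change was 2.59 over the members and -0.01 over all genes tested.

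**Figure D2:**
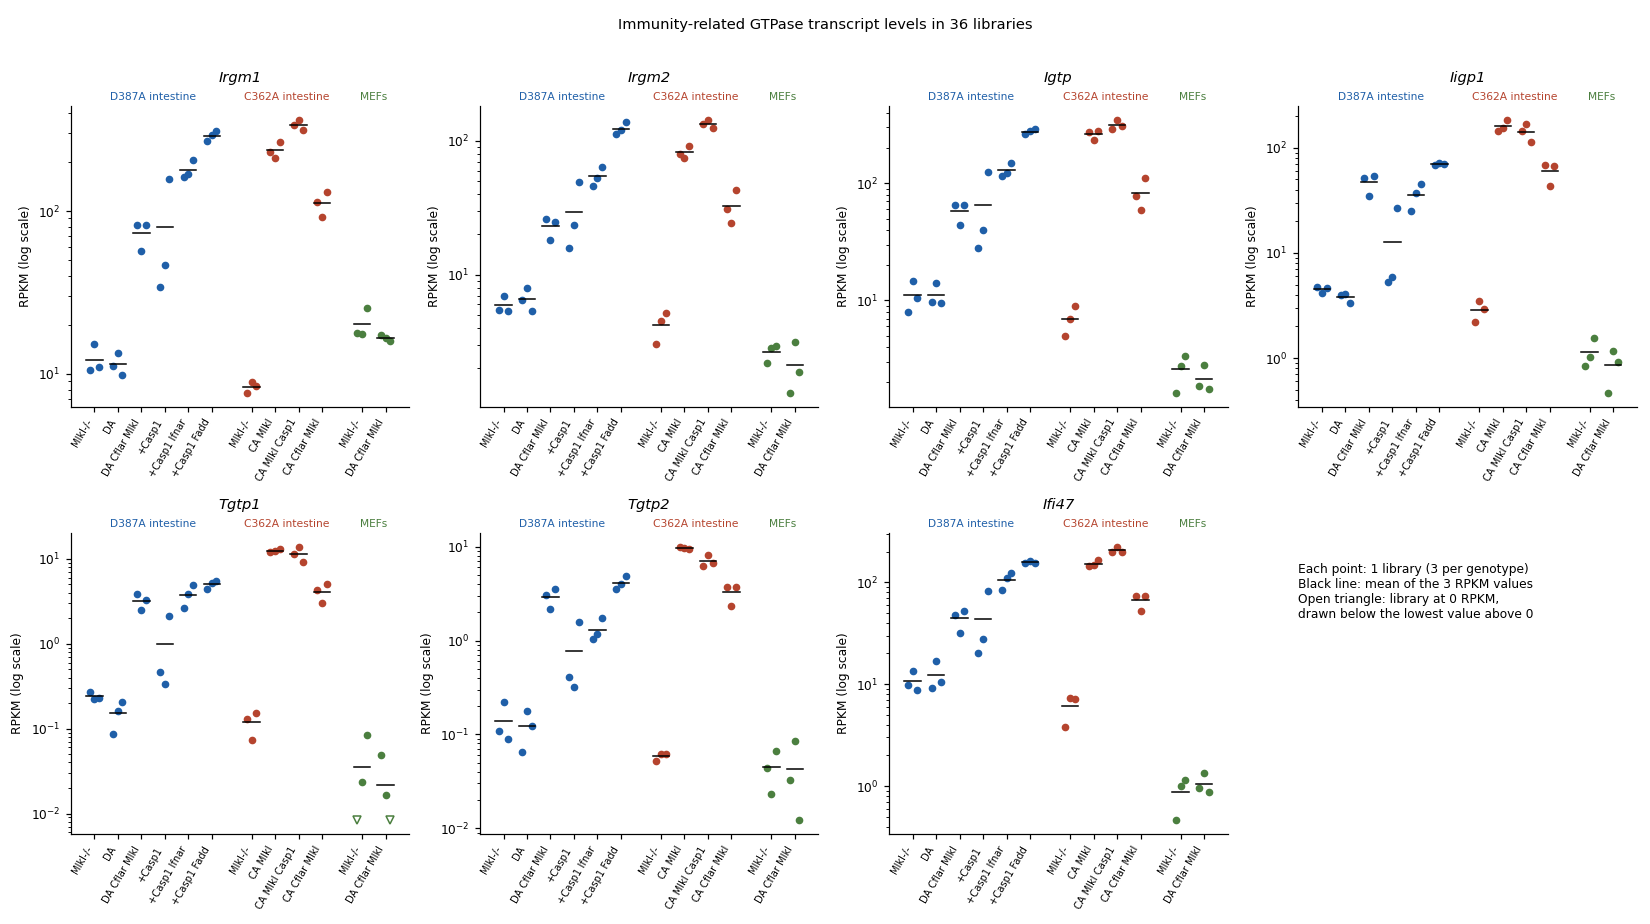
RPKM on a log axis of the 7 members (panels) in each of the 36 libraries (points), by genotype, where DA is Casp8 1xDA/1xDA, CA is Casp8 C362A/C362A, other gene names stand for deletions, and open triangles are libraries at 0 reads. Irgm1 lies between 7.63 and 15.2 RPKM in the Mlkl-/- and DA intestines and reaches 268 to 309 RPKM with Fadd also deleted and 313 to 364 RPKM in CA Mlkl-/- Casp1-/- intestines.

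Deleting Casp1, which encodes the inflammatory caspase-1, from DA Cflar-/- Mlkl-/- embryos lowered Iigp1, Tgtp1 and Tgtp2, and the 3 regulators and Ifi47 were not called. Iigp1 was at 5.33, 5.85 and 26.7 RPKM without Casp1 against 51.7, 35 and 54.3 RPKM with it. All 3 libraries without Casp1 were lower, the third by least, and the difference was 3.73-fold (log2 fold change -1.9 ± 0.42, edgeR adjusted p = 0.00132). Tgtp1 was at 0.467, 0.334 and 2.14 RPKM against 3.84, 2.49 and 3.24 (log2 fold change -1.71 ± 0.433, edgeR adjusted p = 0.00366). Tgtp2 was at 0.404, 0.32 and 1.58 RPKM against 3.07, 2.15 and 3.51 (log2 fold change -1.93 ± 0.408, edgeR adjusted p = 0.000882). Neither Tgtp gene overlapped between the groups. Those 3 of 7 called lower stand beside 4.51% of all genes tested called lower.

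Irgm1, by contrast, was at 34.2, 46.7 and 157 RPKM without Casp1 and at 82.1, 57.1 and 81.7 RPKM with it. The first 2 libraries without Casp1 were below all 3 libraries with it and the third was above them, so that the log2 fold change of 0.1 ± 0.368 averages libraries on both sides. The same split was seen for Igtp, at 27.8, 40.1 and 126 RPKM without Casp1 (log2 fold change 0.15 ± 0.378), and for Ifi47, at 20.1, 27.6 and 81.8 RPKM (log2 fold change -0.03 ± 0.371). Irgm2 was at 15.9, 23.7 and 49.4 RPKM (log2 fold change 0.37 ± 0.281). Without the third library Irgm1 differed by -0.86 (edgeR adjusted p = 0.000913), Igtp by -0.78 (edgeR adjusted p = 0.00858) and Ifi47 by -0.89 (edgeR adjusted p = 0.00625) on the log2 scale, past the adjusted p but short of the threshold of 1 for size. Irgm2 was then at -0.22 (edgeR adjusted p = 0.376) and Iigp1, Tgtp1 and Tgtp2 at -3.07, -2.99 and -3. The sign of the difference in the 3 regulators and its size in Ifi47 thus depended on that library.

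Compared with Mlkl-/- intestines, DA Cflar-/- Mlkl-/- Casp1-/- intestines still had all 7 members called higher, where 2.16% of genes tested were. Irgm1 was 6.48-fold higher (log2 fold change 2.7 ± 0.397) and Iigp1 2.79-fold higher (log2 fold change 1.48 ± 0.439, edgeR adjusted p = 0.0234). Leaving out the third DA Cflar-/- Mlkl-/- Casp1-/- library ended the calls of Iigp1 (log2 fold change 0.31, edgeR adjusted p = 0.355) and Tgtp1 (log2 fold change 0.73, edgeR adjusted p = 0.206), and leaving out any one Mlkl-/- library also took both past an adjusted p of 0.05. Irgm1, Irgm2, Igtp, Tgtp2 and Ifi47 stayed called in each of those fits. Their log2 fold changes without the third DA Cflar-/- Mlkl-/- Casp1-/- library were smaller, at 1.73 for Irgm1, 1.74 for Irgm2, 1.62 for Igtp, 1.37 for Tgtp2 and 1.16 for Ifi47. With only these 2 genotypes in the fit, 4 of the 7 were called.

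**Figure D3:**
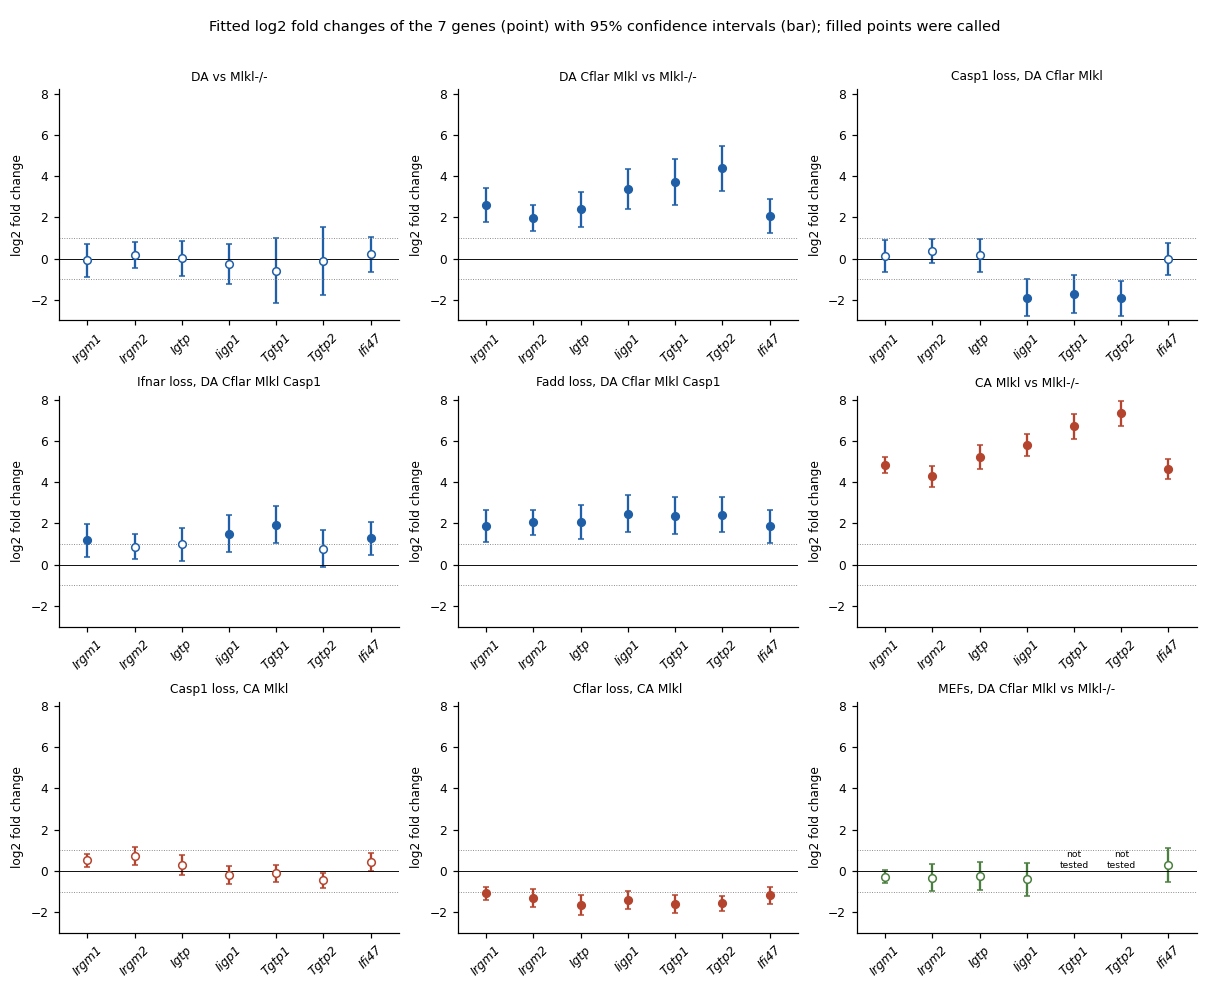
Log2 fold change with its 95% confidence interval for each member in 9 comparisons, with filled points for members called; DA is Casp8 1xDA/1xDA, CA is Casp8 C362A/C362A and other gene names stand for deletions. Points lie near 0 for DA against Mlkl-/- and for MEFs, above 1 for all members in DA Cflar-/- Mlkl-/- and CA Mlkl-/- intestines against Mlkl-/-, and below -1 for Iigp1, Tgtp1 and Tgtp2 alone when Casp1 was deleted in the D387A set.

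Deleting Ifnar1 as well raised 4 of the 7 members, and none was called lower. In DA Cflar-/- Mlkl-/- Casp1-/- Ifnar-/- intestines Irgm1 was at 162, 169 and 205 RPKM against 34.2, 46.7 and 157 with the receptor intact. The groups were apart, narrowly so because of the third library with the receptor, and the difference was 2.26-fold (log2 fold change 1.18 ± 0.372, edgeR adjusted p = 0.0244). Iigp1 was at 25, 37 and 45.6 RPKM against 5.33, 5.85 and 26.7, which overlap (log2 fold change 1.51 ± 0.417, edgeR adjusted p = 0.0125). Tgtp1 was at 2.62, 3.82 and 4.88 RPKM against 0.467, 0.334 and 2.14 (log2 fold change 1.95 ± 0.431, edgeR adjusted p = 0.00351). Ifi47 was at 83, 109 and 122 RPKM against 20.1, 27.6 and 81.8 (log2 fold change 1.28 ± 0.374, edgeR adjusted p = 0.0171), all 3 above the highest of the other group. These 4 of 7 were called higher, where 3.28% of genes tested were.

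The other members were also higher on average after loss of the receptor but were not called. Irgm2 was at 46, 53.1 and 63.8 RPKM (log2 fold change 0.87 ± 0.282, edgeR adjusted p = 0.0269). Igtp was at 116, 123 and 150 RPKM (log2 fold change 1 ± 0.38, edgeR adjusted p = 0.0554) and Tgtp2 at 1.03, 1.16 and 1.72 RPKM (log2 fold change 0.77 ± 0.421, edgeR adjusted p = 0.177). How many members were called depended on single libraries. Without the third DA Cflar-/- Mlkl-/- Casp1-/- library the log2 fold changes were larger, from 1.45 for Irgm2 to 3.23 for Tgtp1, with Irgm1 at 2.14, Iigp1 at 2.68 and Ifi47 at 2.13. The count was 7 without that library and 1, Tgtp1, without the first or the second of that genotype or without the third with Ifnar1 deleted, and Irgm1 alone lost its call without the second with Ifnar1 deleted. With only these 2 genotypes in the fit the count was 0. Against Mlkl-/- intestines all 7 were called higher, where 6.76% of genes tested were, by 7.94-fold for Iigp1 to 15.6-fold for Tgtp1.

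Fadd encodes the adaptor that brings caspase-8 to death receptors. In the intestines that lacked it, the family reached its highest levels in the D387A set. Irgm1 was at 268, 294 and 309 RPKM, Irgm2 at 112, 121 and 138 RPKM and Igtp at 261, 280 and 288 RPKM. All 3 regulators were above every other library of the set. Iigp1 was at 68.9, 71.1 and 69.7 RPKM and Ifi47 at 153, 163 and 156 RPKM, also above every other library of the set, while Tgtp1 at 4.41, 5.26 and 5.55 RPKM overlapped with the Ifnar-/- libraries and Tgtp2 at 3.5, 4.02 and 4.81 RPKM with the DA Cflar-/- Mlkl-/- ones. Compared with DA Cflar-/- Mlkl-/- Casp1-/-, all 7 rose, where 2.56% of genes tested were called higher. The rise ran from 3.65-fold for Ifi47 (log2 fold change 1.87 ± 0.38, edgeR adjusted p = 0.00276) to 5.54-fold for Iigp1 (log2 fold change 2.47 ± 0.427, edgeR adjusted p = 0.000833). Without the third DA Cflar-/- Mlkl-/- Casp1-/- library it ran from 2.64 for Irgm2 to 3.66 for Tgtp1 on the log2 scale, with Ifi47 at 2.72 and Iigp1 at 3.64. With only these 2 genotypes in the fit, 3 of the 7 were called. Against Mlkl-/- all 7 were called higher, where 2.81% of genes tested were, from 14.8-fold for Ifi47 to 29.1-fold for Tgtp2.

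The order of levels in the D387A set differed between members. For Irgm1, Irgm2 and Igtp it ran from DA and Mlkl-/-, which overlap, through DA Cflar-/- Mlkl-/- and DA Cflar-/- Mlkl-/- Casp1-/-, which also overlap, to Ifnar-/- and then Fadd-/-. Between DA Cflar-/- Mlkl-/- Casp1-/- and Ifnar-/- the Irgm2 and Igtp ranges overlap and the Irgm1 ranges do not, and Fadd-/- was apart from both for all 3. For Iigp1 the Casp1-/- and Ifnar-/- intestines, at means of 12.63 and 35.86 RPKM, came below DA Cflar-/- Mlkl-/- at 46.99 RPKM, although the Ifnar-/- range overlaps both. For Tgtp2 the Ifnar-/- intestines, at a mean of 1.299 RPKM, were below DA Cflar-/- Mlkl-/- at 2.911 RPKM with no overlap.

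The family also rose in the C362A set. CA Mlkl-/- intestines had all 7 members called higher than their Mlkl-/- controls, where 10.4% of the 19408 genes tested were. The members' median difference was 5.24 on the log2 scale. Irgm1 was at 230, 213 and 265 RPKM against 7.63, 8.88 and 8.38, a 28.4-fold difference (log2 fold change 4.83 ± 0.176, edgeR adjusted p = 1.9e-10). Irgm2 was at 80.4, 74.7 and 92.4 RPKM against 3.06, 4.5 and 5.17, and Igtp at 272, 234 and 280 RPKM against 4.95, 6.98 and 8.97. The controls and CA Mlkl-/- libraries were far apart for each regulator, with Igtp 37.7-fold and Irgm2 19.5-fold higher.

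The effectors moved by more than the regulators in this comparison except for Ifi47. Iigp1 was at 143, 156 and 185 RPKM against 2.19, 3.51 and 2.92 (log2 fold change 5.81 ± 0.253). Tgtp1 went from 10, 6 and 10 reads to 936, 977 and 1029 reads, a 105-fold difference. Tgtp2 went from 4, 5 and 4 reads to 9.92, 9.68 and 9.54 RPKM, a 162-fold difference (log2 fold change 7.34 ± 0.272). Ifi47 was at 143, 149 and 164 RPKM against 3.78, 7.33 and 7.17, a 24.9-fold difference. Folds of the Tgtp genes rest on control counts this low.

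Loss of Cflar lowered the family in CA Mlkl-/- intestines, by 2.11- to 3.16-fold. Irgm1 was at 113, 92.1 and 131 RPKM in CA Cflar-/- Mlkl-/-, below each CA Mlkl-/- library (log2 fold change -1.08 ± 0.15, edgeR adjusted p = 0.000371). Igtp fell furthest, to 78, 58.8 and 112 RPKM (log2 fold change -1.66 ± 0.229). Iigp1 was at 68.7, 43.8 and 66.7 RPKM (log2 fold change -1.43 ± 0.206) and Ifi47 at 73.7, 52.8 and 73.1 RPKM (log2 fold change -1.19 ± 0.2). All 7 were called lower, where 4.62% of genes tested were. Without the third CA Mlkl-/- library or the second CA Cflar-/- Mlkl-/- library, Irgm1 was at -0.99 or -0.95 on the log2 scale and was not called. Levels stayed above the Mlkl-/- controls for all 7, where 13.4% of genes tested were called higher, from 7.75-fold for Irgm2 to 54.3-fold for Tgtp2.

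Deleting Casp1 from CA Mlkl-/- embryos moved no member past the threshold. Irgm1 was at 339, 364 and 313 RPKM against 230, 213 and 265, higher in all 3 libraries but by 1.43-fold (log2 fold change 0.52 ± 0.149, edgeR adjusted p = 0.0152). Irgm2 was at 134, 144 and 125 RPKM against 80.4, 74.7 and 92.4 (log2 fold change 0.7 ± 0.201, edgeR adjusted p = 0.0151). Tgtp2 was at 6.23, 8.23 and 6.7 RPKM against 9.92, 9.68 and 9.54 (log2 fold change -0.46 ± 0.168, edgeR adjusted p = 0.0479). These regulators and Tgtp2 thus lay on opposite sides of 0. Iigp1, at 143, 167 and 114 RPKM, overlapped with CA Mlkl-/- (log2 fold change -0.19 ± 0.202). EdgeR's count of 0 of 7, and likewise the counts of limma-voom and DESeq2, stands beside 5.6% of genes tested called higher and 5.72% lower. At an unadjusted p under 0.05 there were 4 members, a threshold for which no share of all genes is given. Against Mlkl-/- all 7 were called higher, where 6.79% of genes tested were, with Irgm1 40.8-fold and Tgtp2 117-fold higher.

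The effect of Casp1 loss on Iigp1, Tgtp1 and Tgtp2 differed between the sets when that difference was tested itself in 1 fit of the 30 intestine libraries. In the D387A set these 3 members fell by more, by -1.69 ± 0.506 for Iigp1, -1.57 ± 0.497 for Tgtp1 and -1.45 ± 0.456 for Tgtp2 on the log2 scale (edgeR adjusted p of 0.0234, 0.0311 and 0.0296), where 6.03% of the 19643 genes tested differed in that direction. The other 4 had differences of -0.1 to -0.45 and were not called. Cflar was deleted on both sides of the D387A comparison and intact on both sides of the C362A one, so the Casp8 allele and Cflar cannot be told apart here, and the sets were separate groups of libraries. Without the third DA Cflar-/- Mlkl-/- Casp1-/- library the difference was -2.85 for Iigp1, -2.84 for Tgtp1 and -2.51 for Tgtp2 and all 7 were called. The count was 0 without the first or second of that genotype or the second CA Mlkl-/- Casp1-/- library, and 1 without the first DA Cflar-/- Mlkl-/- or the first or second CA Mlkl-/- library. It was 2 without the third DA Cflar-/- Mlkl-/-, the third CA Mlkl-/- or the first CA Mlkl-/- Casp1-/- library.

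The rise in Cflar-/- Mlkl-/- intestines over their own controls was not shown to differ between DA and CA. The difference ran from -0.99 to -1.4 on the log2 scale with DA lower, edgeR called 0 of 7 (adjusted p from 0.117 to 0.329), limma-voom called 0, and 4 had an unadjusted p under 0.05. Of the genes tested, 0.0509% were called higher and 0.0764% lower, and no share at the unadjusted p is given. The 95% confidence intervals, such as -2.39 to -0.4 for Ifi47 and -2.09 to 0.09 for Iigp1, reach below -2.

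In MEFs with the same DA Cflar-/- Mlkl-/- genotype, no member tested passed the threshold. Irgm1 was at 17.4, 16.5 and 16 RPKM against 17.7, 17.5 and 25.5 in Mlkl-/- MEFs (log2 fold change -0.28 ± 0.14, edgeR adjusted p = 0.804). Igtp was at 1.85, 2.83 and 1.74 RPKM against 1.62, 2.73 and 3.38, and Irgm2 at 1.31, 3.15 and 1.89 RPKM against 2.19, 2.85 and 2.93. These groups overlap for Igtp and Irgm2, and for Irgm1 the DA Cflar-/- Mlkl-/- libraries lie just below the controls. Iigp1 was at 0.467, 1.17 and 0.922 RPKM against 0.844, 1.03 and 1.55, and Ifi47 at 0.946, 1.33 and 0.875 RPKM against 0.462, 1.01 and 1.15. Tgtp1 and Tgtp2 had 0 to 5 reads in each MEF library and were too low to test. EdgeR called 0 of the 5 members tested, as did limma-voom and DESeq2, with 0 at an unadjusted p under 0.05, where 0.0711% of the 15465 genes tested were called higher and 0% lower. Intervals for Irgm1 (-0.6 to 0.04) and Igtp (-0.94 to 0.42) leave out a doubling.

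The effect of the genotype was larger in intestines than in MEFs for 4 of the 5 members tested in both when the difference was tested in 1 fit of the 24 D387A intestine and MEF libraries, where 21.5% of the 18862 genes tested differed in that direction. It was 2.89 ± 0.504 for Irgm1, 2.32 ± 0.456 for Irgm2, 2.68 ± 0.609 for Igtp and 3.79 ± 0.7 for Iigp1 on the log2 scale (edgeR adjusted p from 9.57e-05 to 0.00132). Tgtp1 and Tgtp2, too low to test in MEFs, are left out. Ifi47 (1.79 ± 0.711, edgeR adjusted p = 0.0524) was not called, but was called without the first Mlkl-/- MEF library. Same-numbered MEF libraries deviated together. A block by replicate number in this fit also joined intestine libraries to MEF libraries with which they shared only a number, so it does not model that pairing alone. With that block Ifi47 was called as well, at 1.8 (edgeR adjusted p = 0.0383). It was also called without the second Mlkl-/- or the second DA Cflar-/- Mlkl-/- intestine library. MEFs and intestines were separate preparations with different kits in the methods, which cannot be told apart from the cell source.

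Levels of the members relative to each other also varied between genotypes. Because Iigp1 and Irgm1 moved differently in the comparisons above, the RPKM of each member was set against that of Irgm1 in the same library, a choice made after the values were seen, so the shares are a description with no test. Iigp1 was at 63, 61.3 and 66.5% of Irgm1 in DA Cflar-/- Mlkl-/- intestines and at 15.6, 12.5 and 17.1% in DA Cflar-/- Mlkl-/- Casp1-/- intestines. The third library without Casp1, high in total, sat with its replicates on this measure. In the C362A set Iigp1 was at 62.1, 73.3 and 69.6% of Irgm1 in CA Mlkl-/- and at 42.2, 45.9 and 36.4% in CA Mlkl-/- Casp1-/-. In neither pair do the groups overlap. In Fadd-/- intestines, which had the highest Iigp1 level of the D387A set, the share was 25.7, 24.2 and 22.5%, still below every DA Cflar-/- Mlkl-/- library.

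Ifi47 was at 78.7 to 92.9% of Irgm1 in Mlkl-/- and at 82.7 to 127% in DA intestines. It was lower in the other genotypes of the D387A set, at 55.5 to 64.4% in DA Cflar-/- Mlkl-/-, 52.2 to 59% in DA Cflar-/- Mlkl-/- Casp1-/-, 51.1 to 64.4% with Ifnar1 and 50.6 to 57% with Fadd deleted as well, which overlap each other. In the C362A set it was at 49.5 to 85.6% in Mlkl-/-, 61.8 to 69.9% in CA Mlkl-/- and 58 to 62.9% in CA Mlkl-/- Casp1-/-. In MEFs the share was 2.61 to 8.07%, and that of Iigp1 2.68 to 7.06%, so that Irgm1 was the main member there. Tgtp1 held 47.8 to 76.9% of the reads on the Tgtp pair across intestines, and 71.9 to 76.9% in Ifnar-/- intestines, above the 48.1 to 57.7% of DA Cflar-/- Mlkl-/- intestines with and without Casp1. With Tgtp1 and Tgtp2 summed, the pair was called in the same direction as Tgtp1 in every comparison with intestines in which Tgtp1 was called.

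**Figure D4:**
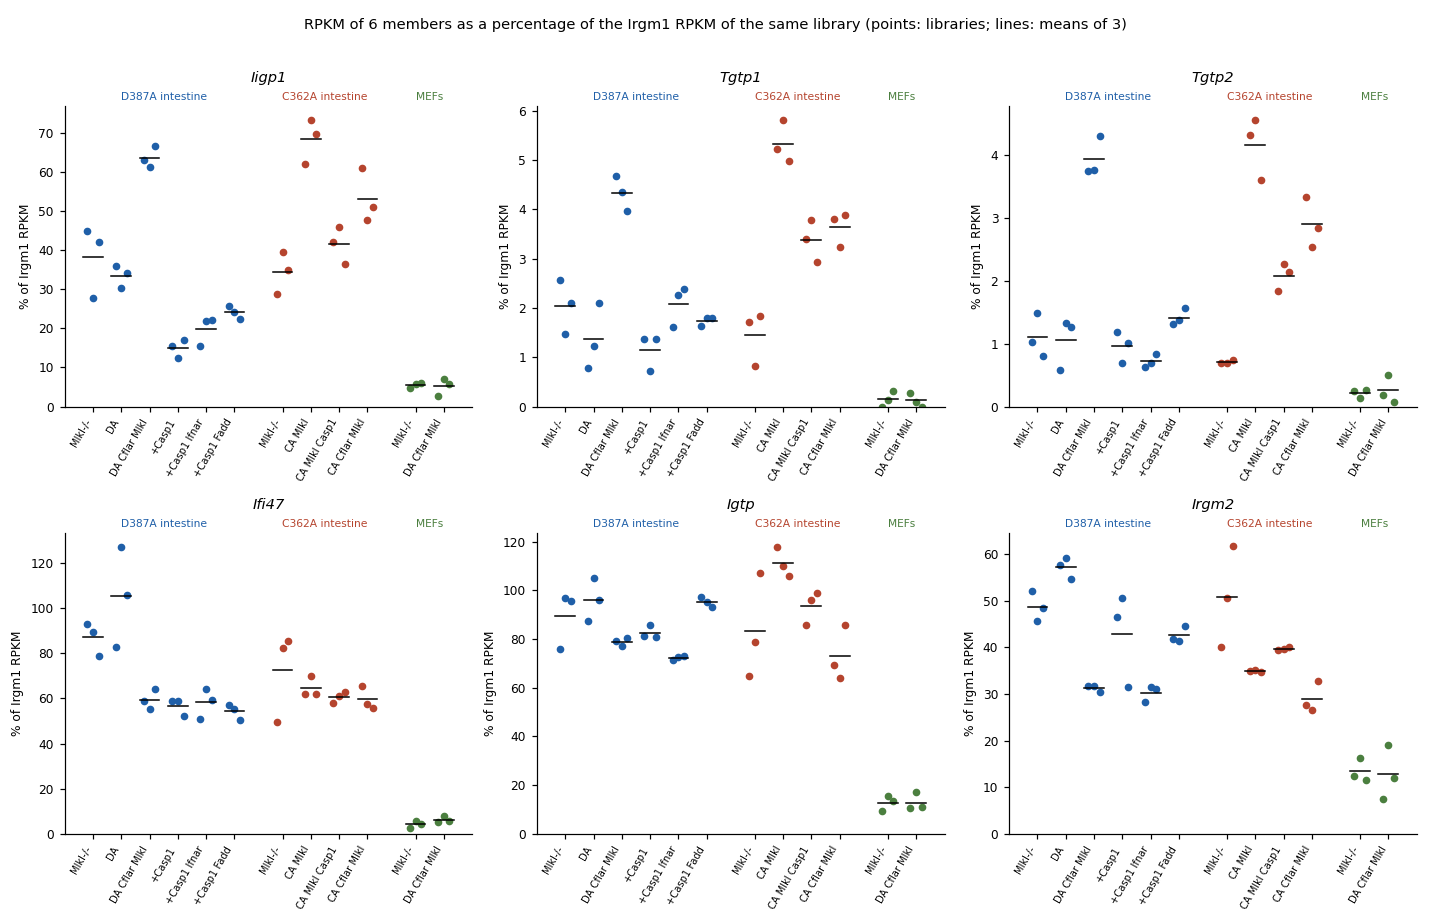
RPKM of 6 members as a percentage of Irgm1 RPKM in the same library (points), by genotype, where DA is Casp8 1xDA/1xDA, CA is Casp8 C362A/C362A and other gene names stand for deletions. Iigp1 lies at 61.3 to 66.5% in DA Cflar-/- Mlkl-/- and 12.5 to 17.1% in DA Cflar-/- Mlkl-/- Casp1-/- intestines, while Ifi47 lies at 55.5 to 64.4% and 52.2 to 59% in the same libraries, below its 78.7 to 92.9% in Mlkl-/- intestines.

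Across libraries the members followed each other closely. Pearson's r between log2 CPM of pairs of members ran from 0.881 (Irgm2 and Tgtp2) to 0.996 (Irgm1 and Igtp) over the 18 libraries of the D387A set, and from 0.963 to 0.996 over the 12 of the C362A set. The 5 other genes most like the members, by r with the mean of their standardized levels in the D387A set, were Tap1, which moves peptides for MHC class I, Gbp3, a guanylate-binding protein, Pnpt1, an RNA-degrading enzyme of mitochondria, Nampt, which makes NAD, and Ifi44, an interferon-induced protein. Their r with that mean was 0.993, 0.992, 0.991, 0.989 and 0.989 in the D387A set and 0.999, 0.994, 0.968, 0.963 and 0.979 in the C362A set. Libraries of one genotype share its level, so these values describe genotypes as much as libraries.

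Other family genes and neighbours came from a list, and those named here and among the guanylate-binding proteins, beyond the highest and lowest of each list, were chosen after their values were seen. In DA Cflar-/- Mlkl-/- against Mlkl-/- intestines, 4 of 8 other family genes tested were called higher and 0 lower, beside 9.4% of all genes called higher. They were Gm12250 (log2 fold change 2.18 ± 0.433), Gm4951 (3.66 ± 0.375), F830016B08Rik (3.98 ± 0.654) and Gm12185 (4.57 ± 0.509). Irgq, a distant relative, was at -0.32 ± 0.111 and not called. In CA Mlkl-/- intestines 7 of 8 were called higher, beside 10.4% of all genes, and Irgq (-0.63 ± 0.2) was not. Casp1 loss in the D387A set lowered Gm4951 (-2.88 ± 0.346), F830016B08Rik and Gm12185 and raised Gm5431 (1.78 ± 0.476), beside 4.51% of all genes called lower and 8.88% called higher. Without the third library without Casp1 the 3 that fell were still called lower, with Gm4951 at -3.7, and Gm5431 was at 0.75 and not called. Between Irgm1 and Ifi47, the unrelated gene Psme2b was at 0.62 in DA Cflar-/- Mlkl-/- (edgeR adjusted p = 0.000894), too small to be called, and at 1.34 and called higher in CA Mlkl-/- intestines. Olfr56, which shares exon sequence with Ifi47, was at 4.12 and 6.33 in these comparisons and called higher in both, and the pseudogene Gm12186 was at 0.41 and -0.09 and called in neither.

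Guanylate-binding proteins, the larger GTPases that act on the same vacuoles, rose with the family. In DA Cflar-/- Mlkl-/- intestines 9 of 11 were called higher, among them Gbp2 (log2 fold change 3.8 ± 0.34), Gbp5 (4 ± 0.518) and Gbp10 (7.7 ± 1.17), and Gbp2b was called lower (-1.5 ± 0.421). In CA Mlkl-/- intestines 11 of 11 were called higher, and the shares of all genes called higher were 9.4% and 10.4%. Loss of Casp1 lowered 5 of 11 in each set, beside 4.51% of all genes in the D387A set and 5.72% in the C362A set, with Gbp2 at -2.7 ± 0.317 in the D387A set and -2.97 ± 0.228 in the C362A set. Gbp3, of these genes the one most like the members, was at -0.27 ± 0.438 and 0.59 ± 0.207 in those comparisons and was not called. Without the third DA Cflar-/- Mlkl-/- Casp1-/- library, 9 of 11 were called lower in the D387A set, with Gbp2 at -3.43 and Gbp3 at -1.57. The share of all genes called lower in that fit is not given. Of the autophagy genes, whose products work with the family at vacuoles, edgeR called 0 of 11 higher in DA Cflar-/- Mlkl-/- and in CA Mlkl-/- intestines, which at those shares of all genes is no result about the list, and 1, Gabarap, was called lower in DA Cflar-/- Mlkl-/- (-1.23 ± 0.103).

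The interferon genes reported here were Ifng, Ifnb1, Ifnl2 and Ifnl3, and their transcripts were few. No interferon-alpha gene is among them. Ifng had 0 to 4 reads in every library of the D387A set, 29 to 35 in CA Mlkl-/- intestines, 1 in each CA Mlkl-/- Casp1-/- library and 0 to 4 in CA Cflar-/- Mlkl-/-. Ifnb1 had 0 to 2 reads in Mlkl-/-, DA, DA Cflar-/- Mlkl-/- and DA Cflar-/- Mlkl-/- Casp1-/- intestines, 2 to 8 with Ifnar1 deleted, 11 to 26 with Fadd deleted, 4 to 8 in CA Mlkl-/-, 37 to 58 in CA Mlkl-/- Casp1-/- and 0 in CA Cflar-/- Mlkl-/-. The type III interferons Ifnl2 and Ifnl3 had 6 to 16 and 8 to 18 reads with Fadd deleted and 20 to 22 and 19 to 24 in CA Mlkl-/- Casp1-/- intestines, the genotypes with the highest Irgm1 level of their sets. The part of any of these transcripts in the family's levels was not tested. Loss of Casp1 in CA Mlkl-/- intestines lowered Ifng (log2 fold change -4.63 ± 0.608) and raised Ifnb1 (3.19 ± 0.394), Ifnl2 (3.51 ± 0.488) and Ifnl3 (3.12 ± 0.604). MEFs had 0 reads of Ifng and Ifnb1 in every library. Counts this low do not show that an interferon was absent.

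Receptors and signalling genes were on the same list. DA Cflar-/- Mlkl-/- intestines had 1 of 14 tested called higher, Socs1 (log2 fold change 1.62 ± 0.307), a feedback inhibitor, and 2 called lower, the type III interferon receptor chains Ifnlr1 (-1.9 ± 0.12) and Il10rb (-1.58 ± 0.096), beside 9.4% of all genes called higher and 12.8% called lower, so these counts are near the shares of all genes. The other 11, among them the receptor genes Ifngr1, Ifngr2 and Ifnar2, the kinases Jak1, Jak2 and Tyk2 and the factors Stat2 and Irf8, were at -0.85 to 0.88 and not called. With Fadd deleted, 4 of 14 were called higher than in Mlkl-/- and 0 lower, where 2.81% of genes tested were higher and 0.975% lower. They were Stat2 (1.89 ± 0.238), Irf1 (1.14 ± 0.165), Irf9 (1.26 ± 0.192) and Socs1 (2.77 ± 0.309). In CA Mlkl-/- intestines 9 of the 18 tested, the interferons included, were called higher and 0 lower, beside 10.4% and 7.55% of all genes, with Stat2 at 1.66 ± 0.14, Irf1 at 1.68 ± 0.149 and Irf9 at 1.55 ± 0.16.

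Cell type markers moved in the same comparisons as the family. Their counts stand beside shares of all genes called of 9.4% higher and 12.8% lower in DA Cflar-/- Mlkl-/- and 10.4% higher and 7.55% lower in CA Mlkl-/- against Mlkl-/-. For Casp1 loss the shares were 8.88% higher and 4.51% lower in the D387A set and 5.6% higher and 5.72% lower in the C362A set, and for Cflar loss 1.45% higher and 4.62% lower. Enterocyte markers summed to 1660 to 3540 CPM in DA Cflar-/- Mlkl-/- against 37300 to 44000 in Mlkl-/- intestines, and 6 of 6 were called lower, while in Fadd-/- intestines, where 5 of the members were highest, they summed to 40600 to 46500. Neutrophil markers summed to 35.5 to 128 CPM in DA Cflar-/- Mlkl-/- against 3.68 to 17.2 in Mlkl-/-, with 5 of 6 called higher and Mpo called lower (log2 fold change -2.03 ± 0.78), and to 9.14 to 17.9 in DA Cflar-/- Mlkl-/- Casp1-/- intestines, with 4 of 6 called lower, with or without the third library, beside the fall of Iigp1, Tgtp1 and Tgtp2. In the same comparison enterocyte markers went up to 20500 to 29900 CPM, with 6 of 6 called higher. In the C362A set neutrophil markers summed to 304 to 386 CPM in CA Mlkl-/- against 9.27 to 25.5 in Mlkl-/-, with 5 of 6 called higher, and to 15.6 to 19.9 in CA Mlkl-/- Casp1-/-, with 5 of 6 called lower, where no member was called. Enterocyte markers there summed to 33600 to 51900 CPM in Mlkl-/-, 18000 to 22000 in CA Mlkl-/-, with 4 of 6 called lower, and 51700 to 65200 in CA Mlkl-/- Casp1-/-, with 6 of 6 called higher than in CA Mlkl-/-.

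Of 6 macrophage markers in DA Cflar-/- Mlkl-/- against Mlkl-/- intestines, Adgre1 (log2 fold change 1.03) and Ly6c2 (1.35) were called higher, Csf1r (-1.83) was called lower, and the other 3 were at 0.76 to 0.92 and not called. Their sum, in which Csf1r weighs, was 129 to 191 CPM against 306 to 323. The third DA Cflar-/- Mlkl-/- Casp1-/- library, which stood apart in the family, had a sum of 417 CPM against 235 and 230 in its replicates. It was also highest for epithelial (4110 against 2840 and 3200), enterocyte (29900 against 20500 and 25500) and neutrophil markers (17.9 against 9.14 and 10.2). The same held for smooth muscle and T and NK cell markers. Fibroblast markers were lowest in it (3730 against 4340 and 3860), and endothelial markers lay in between. With Ifnar1 also deleted, where 4 members rose, macrophage markers summed to 363 to 417 CPM. Neutrophil markers were at 17.9 to 28 CPM against 9.14 to 17.9 with the receptor intact, and epithelial markers at 4210 to 4440 against 2840 to 4110. EdgeR called 0 of 6 on each of these 3 lists in that comparison, beside 3.28% of all genes called higher, with 1 macrophage, 3 neutrophil and 4 epithelial markers at an unadjusted p under 0.05, all higher. Other lists went down without overlap, fibroblast markers to 3020 to 3180 CPM against 3730 to 4340 and endothelial markers to 317 to 357 against 426 to 468. The largest falls on them, Col1a1 (-0.53, edgeR adjusted p = 0.00368) and Kdr (-0.51, edgeR adjusted p = 0.00124), were too small to be called. T and NK cell markers summed to 7.38 to 8.08 CPM in CA Mlkl-/- against 3.57 to 4.09 in Mlkl-/-, and 3 of 5 tested were called higher, Ncr1 (15.5-fold), Klrb1c (3.4-fold) and Cd3g (2.47-fold), in the genotype with the most Ifng reads. The same markers were called higher in CA Cflar-/- Mlkl-/- against Mlkl-/-, by 9.44-, 3.7- and 2.67-fold with a sum of 7.6 to 9.54 CPM, where Ifng had 0 to 4 reads. Beside the fall of the family with Cflar loss, enterocyte markers went from 18000 to 22000 CPM in CA Mlkl-/- to 2760 to 8950 in CA Cflar-/- Mlkl-/-, with 6 of 6 called lower. In that comparison macrophage markers went from 328 to 368 to 148 to 209 CPM, with 2 of 6 called lower, and smooth muscle markers from 3230 to 4500 to 6080 to 7150 CPM, with 1 of 6 called higher. Of the fibroblast markers, 0 of 6 were called by edgeR in DA Cflar-/- Mlkl-/- or CA Mlkl-/- intestines against Mlkl-/-, which is no result about the list beside 9.4% and 10.4% of all genes called higher. Their sum was 4800 to 4930 CPM in DA Cflar-/- Mlkl-/- against 3640 to 4000, and overlapped with controls in CA Mlkl-/-. Smooth muscle markers summed to 7060 to 8840 CPM in DA Cflar-/- Mlkl-/-. That stood against 5130 to 5570 in Mlkl-/- and 4590 to 4970 in DA Cflar-/- Mlkl-/- Casp1-/-. With Fadd deleted, enterocyte markers summed to 40600 to 46500 CPM against 20500 to 29900 in DA Cflar-/- Mlkl-/- Casp1-/-, and epithelial markers to 4230 to 4460 against 2840 to 4110. Endothelial markers were lower, at 337 to 370 against 426 to 468, as were fibroblast markers, at 3050 to 3510 against 3730 to 4340. Sums of the other lists overlap there. No marker of these lists was at 0 in every library of an intestine genotype, and their part in the results was not tested.

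**Figure D5:**
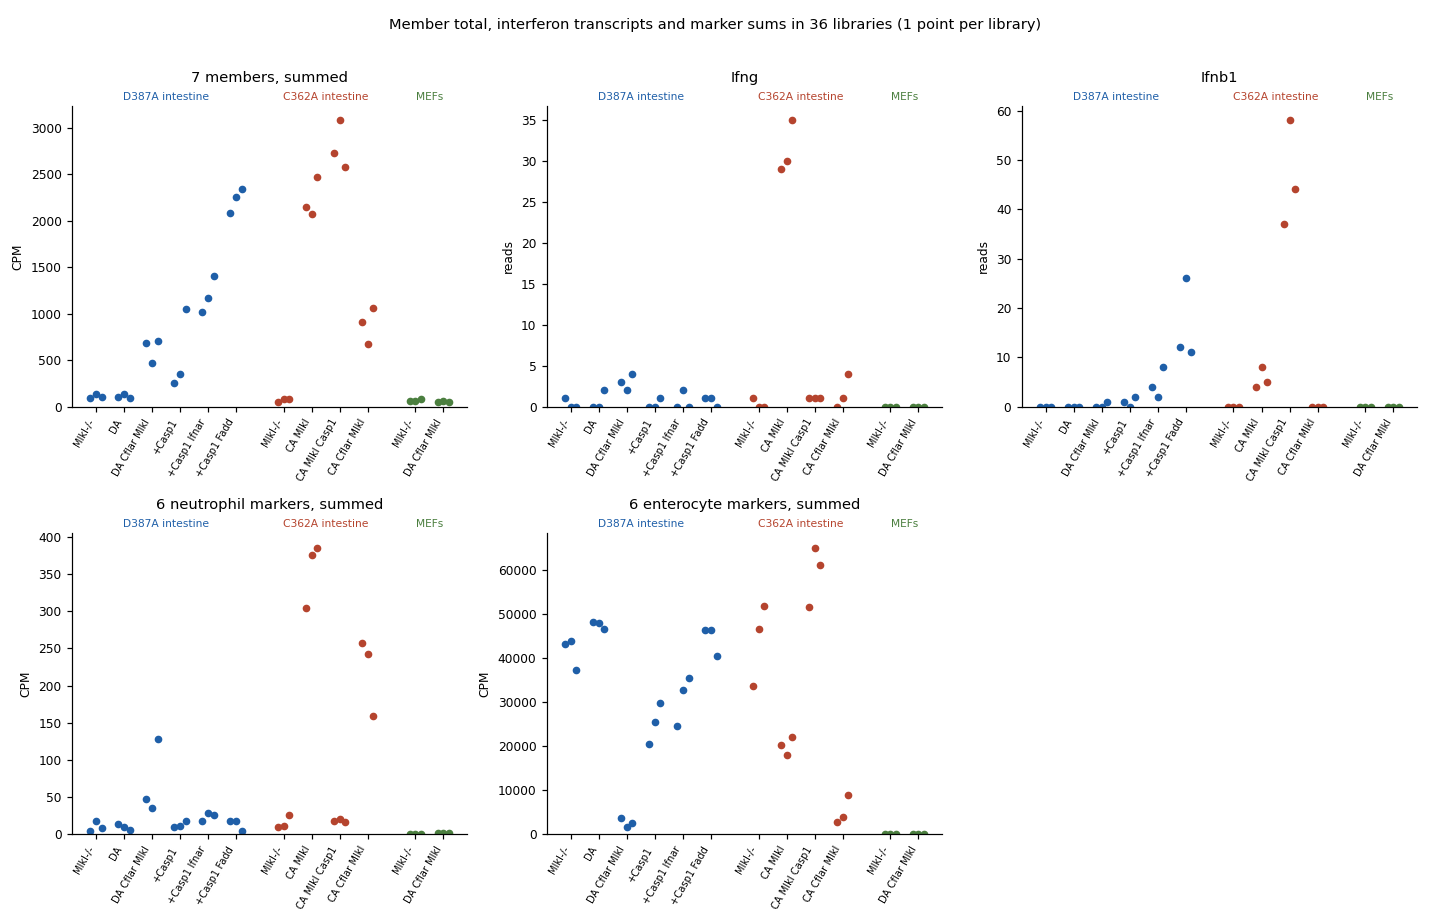
Measures in each library (points) by genotype: summed CPM of the 7 members, Ifng reads, Ifnb1 reads, and summed CPM of the neutrophil and of the enterocyte markers; DA is Casp8 1xDA/1xDA, CA is Casp8 C362A/C362A and other gene names stand for deletions. The members sum to 2080 to 2340 CPM with Fadd deleted and 2580 to 3080 CPM in CA Mlkl-/- Casp1-/- intestines, where Ifng has 0 to 1 reads, and Ifng stands out in CA Mlkl-/- intestines at 29 to 35 reads.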

How the data were processed

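RNA from 30 intestines and 6 MEF cultures was sequenced as single-end reads of 50 bases. The authors aligned reads with GSNAP to GRCm38 (mm10) and kept unique alignments. The labels and the study's methods name different library kits and sequencers, so strand use is not settled, and the counting tool was not given in the sources used here. The deposited files hold whole-number exonic counts per gene with gene widths and RPKM values made by the authors. RPKM and CPM used here were recomputed from the deposited counts and widths on TMM-scaled library sizes within each set, and the deposited RPKM column was not used for any value.

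Genes were kept by filterByExpr (minimum count 10, total 15) and tested with edgeR 4.0.16 (R 4.3.3) by glmQLFTest, with all genotypes of a set in 1 fit and Benjamini-Hochberg adjustment. The study used limma, which was run as an alternative (limma-voom 3.58.1) beside DESeq2 1.42.0, RLE size factors, no filter, a mean of at least 50 reads, a prior count of 2 in place of 0.125, fits of only the 2 groups compared, a replicate block, adjusted p alone, Tgtp1 and Tgtp2 summed, and leaving out each library. The gene lists were also fitted without the third DA Cflar-/- Mlkl-/- Casp1-/- library, an alternative chosen after seeing the data. Scripts were tested on simulated data. Differences between comparisons were tested as contrasts in joint fits, called at an adjusted p of 0.05.

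The members, gene lists and comparisons were chosen with earlier results of these data known. The genes named are the 7 members, the targeted genes, the 5 most like the members, genes of the inducer list, from which 1 gene is not reported here, and the highest and lowest of each other list, and others named were chosen after their values were seen. Numbers in the labels mark biological replicates, and which libraries shared a litter was not stated. The study calls Mlkl-/- controls littermates in comparisons with DA Cflar-/- Mlkl-/-, CA Mlkl-/- and CA Cflar-/- Mlkl-/- intestines. It does not do so in those with DA or Fadd-/- intestines. Same-numbered libraries deviated together in MEFs (r 0.172 to 0.308 over 3 pairs of libraries). The MEF values reported come from the fit without a block, and the blocked fit, an alternative, changed no call between the MEF groups. In the D387A set 8 of 45 pairs and in the C362A set 4 of 18 pairs had r over 0.1. Replicates differed by 5.34 to 77.2 times their counting noise, so none was a repeat of another. Total reads on genes ranged from 17943524 to 27721024 in the D387A set, 21757868 to 31052238 in the C362A set and 20927014 to 32307629 in MEFs, and precision was set mainly by the spread between libraries.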

Additional observations from a re-analysis of the deposited data

Results flagged for a closer look

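7 differences between comparisons passed a test of the difference itself (a contrast in a joint edgeR fit, adjusted p under 0.05). Loss of Casp1 lowered 3 members by more in DA Cflar-/- Mlkl-/- than in CA Mlkl-/- intestines, by -1.69 on the log2 scale for Iigp1, -1.57 for Tgtp1 and -1.45 for Tgtp2, lower in 3 of 3 libraries of the D387A set for each. These calls depended on single libraries, with 0 to 7 members called when 1 was left out. The Casp8 allele and Cflar cannot be told apart in this difference.

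The DA Cflar-/- Mlkl-/- genotype raised 4 members by more in intestines than in MEFs, by 2.89 for Irgm1, 2.32 for Irgm2, 2.68 for Igtp and 3.79 for Iigp1 on the log2 scale, with 3 of 3 intestine libraries above their controls for each. Tgtp1 and Tgtp2, at 0 to 5 reads in each MEF library, were left out. Groups of 3 are too small for a test of single outlying libraries.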

How the results depend on the processing

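Counts of members called in the 14 comparisons stayed within 1.5 times of the reported count under RLE size factors, no filter on low counts, a mean of at least 50 reads, a prior count of 2, DESeq2, limma-voom, a replicate block and summed Tgtp genes. With only the 2 groups in the fit, which leaves fewer libraries to estimate the spread, the counts fell to 4 for DA Cflar-/- Mlkl-/- Casp1-/- against Mlkl-/-, 0 for the loss of Ifnar1 and 3 for the loss of Fadd. At an adjusted p alone the loss of Casp1 in CA Mlkl-/- intestines had 3 members called, 2 higher and 1 lower, with no share of all genes beside that count. With single libraries left out, the count ranged from 1 to 7 for the loss of Ifnar1, from 0 to 7 for the difference in Casp1 loss between the sets, from 5 to 7 for DA Cflar-/- Mlkl-/- Casp1-/- against Mlkl-/- and from 6 to 7 for the loss of Cflar in CA Mlkl-/-; the cause was not tested.

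Reversed signs concerned members that were not called. For Casp1 loss in the D387A set Irgm1 was at -0.2 and Igtp at -0.14 with limma-voom and Irgm1 at -0.02 with the replicate block, and for DA against Mlkl-/- Igtp was at -0.01 with only the 2 groups. With single libraries left out, Casp1 loss in the D387A set ranged from -0.86 to 0.47 for Irgm1, -0.22 to 0.67 for Irgm2, -0.78 to 0.52 for Igtp and -0.89 to 0.31 for Ifi47. DA against Mlkl-/- ranged from -0.22 to 0.09 for Irgm1, -0.21 to 0.26 for Igtp, -0.46 to 0.37 for Tgtp2 and -0.11 to 0.41 for Ifi47. Casp1 loss in the C362A set ranged from -0.28 to 0.01 for Tgtp1, the MEF comparison from -0.04 to 0.51 for Ifi47, and the difference in Casp1 loss from -1.02 to 0.26 for Igtp.

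With the replicate block, the loss of Ifnar1 had 5 members called against 4 and the difference between intestines and MEFs 5 against 4 with Ifi47 added, and no other count changed. Of single calls, limma-voom lost Iigp1 and Tgtp1 in DA Cflar-/- Mlkl-/- Casp1-/- against Mlkl-/- (adjusted p = 0.123 and 0.141) and gained Irgm2 and Igtp for the loss of Ifnar1 (adjusted p = 0.01 and 0.0126). In the intestine sets libraries shared only a number, with pair correlations from -0.278 to 0.226 and from -0.449 to 0.292. Depth limits Tgtp1 and Tgtp2, at 4 to 15 reads in intestinal controls, and the interferon transcripts.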
